A study of Mus musculus with 8 samples.

Results

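The mitochondrial ribosomal protein genes were taken from the liver RNA-seq table as every gene whose symbol starts with Mrpl or Mrps followed by a digit. The rule found 76 of the 11784 genes listed, 47 named for the large subunit (Mrpl) and 29 for the small subunit (Mrps). NCBI RefSeq lists 78 protein-coding mouse genes of this naming, and the other 2, Mrpl57 and Mrpl58, stand in the table under the older symbols Mrp63 and Ict1. Livers came from male C57BL/6J mice with no engineered allele named in the labels, and they received an amino acid defined diet. This was the Control diet, TD.140711, or the Low AA diet, TD.140712, which is reduced in amino acids and, per the paper, raised in carbohydrate. Both changes come together, so their parts cannot be told apart here. The diets began at 9 weeks of age and lasted 4 months, and the mice were killed after a fast of about 16 hours. There were 4 mice per diet, each with its own code, F129, F2212, F7111 and F2110 on Control and H1126, H828, H817 and H1315 on Low AA, and each mouse was 1 replicate.

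Mitochondria keep a ribosome of their own, which makes the few proteins encoded by mitochondrial DNA, all of them parts of the respiratory chain and the ATP synthase. Its RNAs come from mitochondrial DNA, but all of its proteins are encoded in the nucleus, made in the cytosol and imported. Some of these proteins have counterparts in bacterial ribosomes, and others are found only in mitochondria. In liver, whose hepatocytes are rich in mitochondria, the particle thus supplies parts of the chain that takes up the electrons from fatty acid and amino acid oxidation. The comparison of diets asks whether the mRNAs for the large and small subunits differed after long feeding of the Low AA diet.

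The values are scaled read counts, rounded to whole numbers before deposit, and they are compared here as log2(value + 1). They summed to between 27876664 and 30799385 per mouse, which is after scaling and so does not give the exact depth. The 6 hepatocyte markers, among them Alb and Apoa1, summed to between 2004658 and 2465820 per mouse, so hepatocyte mRNA was abundant in all 8. The markers of muscle and adipose tissue, Cd3e of T cells and Krt7 of bile ducts were not among the genes listed. Control mouse F2212 stood apart. Cela1, a pancreatic elastase and the 1 pancreas marker of 5 in the table, measured 36587 in F2212 and 130 to 288 in the other 7 mice, and 4 erythroid genes summed to 23808 in F2212, where F129, F7111 and F2110 ran from 6767 to 17043 and the Low AA mice from 8138 to 12928. Markers of lymphocytes (Cd79a and Ptprc, 449 in F2212, 246 to 263 in the other Control mice, 291 to 422 on Low AA) and of Kupffer cells (6 genes, 10728, 7209 to 7988 and 7664 to 10923) were also highest of the Control mice in F2212. The 6 stellate cell markers were lowest there, at 7509 against 7716 to 9777 in the other 7 mice. The 5 endothelial markers summed to 5313 in F2212 and were lowest in F7111 (4307) and highest in F2110 (6228). The 4 bile duct markers listed were highest in F129, at 2265 against 826 to 1316 in the other 7 mice. The erythroid sum was above every Low AA mouse in F129 (17043) and F2110 (15506) too. Between diets, 3 of 4 erythroid and 2 of 4 bile duct markers had an unadjusted limma p under 0.05. So did 1 of 6 Kupffer and 1 of 6 stellate cell markers, where all genes gave 5.13% higher and 6.7% lower. Hepatocyte, endothelial and lymphocyte markers gave 0, and no marker was called after adjustment. The part of these cells in the values below was not tested. The counts of genes and the leading genes are therefore also given without F2212 and F7111, the Control mouse at the other end of a trend with transcript length. In whole liver, fewer cells of a type and less RNA per cell cannot be told apart.

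All 76 genes were expressed well above the bottom of the table. The lowest single value was 147 and the highest 3759, and no gene fell to 100 or below in any mouse. The median over the 76 genes of the mean value was 643, against 445 for all genes. They took 0.195% ± 0.0255 (SD, n = 4) of the summed values on Control and 0.195% ± 0.00408 (SD, n = 4) on Low AA. The share ran from 0.162% in F7111 to 0.220% in F2212, both on Control, so the Low AA mice lay inside the Control range.

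Levels can be compared between genes only per length, here the length of the principal coding transcript in GENCODE M21. Per kilobase, the median level was 617 for the large subunit and 445 for the small subunit, against 157 for all genes with a length. The highest in the large subunit were Mrpl12, the protein of the flexible stalk that receives translation factors, at 2379 ± 332 per kilobase (SD over 8 mice), and Mrpl30 at 1863 ± 216. In the small subunit Mrps21 led with 1409 ± 175, followed by Mrps18b with 1196 ± 85.7. In the order of levels, 34 of 46 neighbouring pairs in the large subunit and 19 of 28 in the small differed by less than the larger of their SDs, while the steps from Mrpl12 to Mrpl30 and from Mrps21 to Mrps18b were larger. At the low end were Mrpl19 (74.6 ± 4.86), Mrpl47 (84.2 ± 11.6), Mrps25 (85.4 ± 17.4) and Mrps26 (93.6 ± 11), whose transcript lengths used here are long, at 5000, 3364, 6073 and 4278 bases. The length for Mrps26 exceeds the span of its RefSeq gene (chr2:130563757-130565394), so its level per kilobase is uncertain. The same holds for Mrpl51, Mrps16 and Mrpl32.

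**Figure D1:**
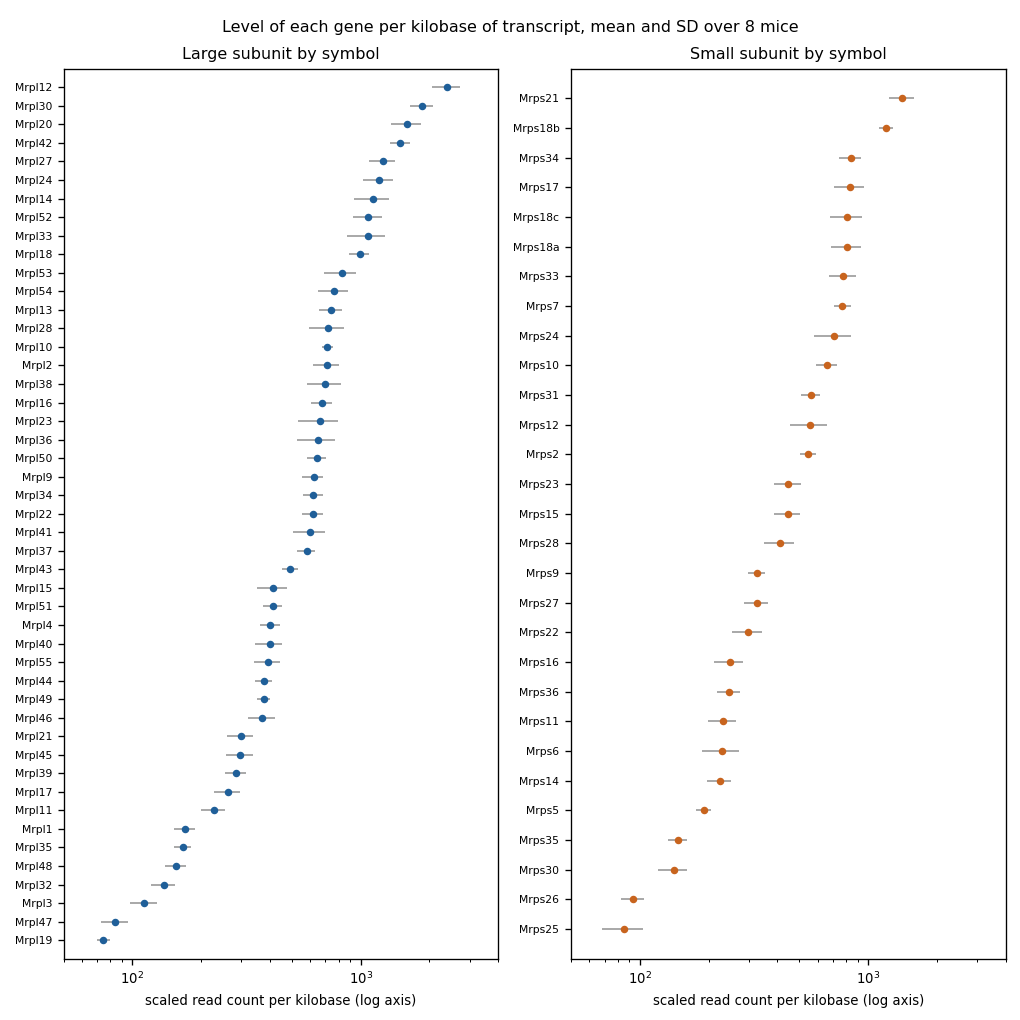
Mean scaled read count per kilobase of transcript (log axis) for each mitochondrial ribosomal protein gene, with the SD over the 8 mice as a bar, large subunit on the left and small subunit on the right. Mrpl12 at 2379 and Mrps21 at 1409 are the highest of each subunit, and Mrpl19 at 74.6 and Mrps25 at 85.4 the lowest.

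None of the 76 genes was called different between diets. By limma with Benjamini-Hochberg adjustment over all 11784 genes, 0 of 76 passed an adjusted p of 0.05, and the smallest adjusted p was 0.313 (Mrps30). The share called among all genes was 0.399%. At an unadjusted p under 0.05 there were 3 of the 76, 1 higher on Low AA (Mrpl3) and 2 lower (Mrps30 and Mrpl38), where all genes gave 5.13% higher and 6.7% lower. The 4 mice of one diet lay wholly below the 4 of the other for 1 gene (Mrps30, lower on Low AA) and wholly above for 0, against 3.55% and 3.26% of all genes. Each of these shares was below that of the table as a whole. Without F2212 and F7111, 0 of 76 were called by limma, against 0.322% of all genes, and 3 had an unadjusted p under 0.05, but these were other genes, Mrpl23 higher and Mrpl1 and Mrps31 lower on Low AA, beside 5.34% higher and 6.12% lower over all genes. With only 2 Control mice left, 1 gene lay wholly above and 5 wholly below, against 9.73% and 11.1% of all genes. Mrps30 and Mrpl23 were among these 6. Count models were not run, since the values are not raw counts.

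Before the diet values, the start sites of 4 genes are shown, 2 that carried an unadjusted p under 0.05 (Mrpl3 and Mrps30), the most abundant gene (Mrpl12) and Mrps22, whose fold change was among the lowest of the small subunit. Each is the 150 bases before the RefSeq start on GRCm38.p6, 5′ to 3′ on the coding strand, and capitals mark a match to CGGAAG on either strand, the core letters bound by ETS factors such as GABP, a known activator of mitochondrial genes. Mrpl3 lies on the plus strand (chr9:105053118-105053267), Mrps22 on the minus strand (chr9:98601680-98601829), Mrpl12 on the plus strand (chr11:120484487-120484636) and Mrps30 on the minus strand (chr13:118387253-118387402).
Mrpl3: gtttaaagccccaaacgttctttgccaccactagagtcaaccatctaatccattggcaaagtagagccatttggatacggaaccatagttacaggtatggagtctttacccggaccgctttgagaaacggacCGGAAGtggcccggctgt
Mrps22: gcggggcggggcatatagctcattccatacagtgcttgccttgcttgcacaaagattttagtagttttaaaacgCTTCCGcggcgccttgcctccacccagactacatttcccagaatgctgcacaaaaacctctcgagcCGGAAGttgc
Mrpl12: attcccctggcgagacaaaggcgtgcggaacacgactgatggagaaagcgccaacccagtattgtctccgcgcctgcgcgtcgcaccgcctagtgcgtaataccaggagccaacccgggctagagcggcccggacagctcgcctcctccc
Mrps30: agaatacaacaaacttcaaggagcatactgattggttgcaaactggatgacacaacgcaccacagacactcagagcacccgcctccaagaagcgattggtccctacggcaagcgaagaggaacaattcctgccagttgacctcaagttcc
In Mrpl3 the match begins 18 bases before the start, and Mrps22 has 2, beginning 76 and 10 bases before it. Mrpl12 holds its match only after the start, at base 14, and Mrps30 has no such match but holds ATGGCG, the core of YY1, at base 19 after the start, so their printed stretches have no capitals.

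Over 300-base windows, 250 bases before the start and 50 after, 67 of the 76 genes had a RefSeq entry. CGGAAG stood in the windows of 37 of these 67 genes, 22 of 41 in the large subunit and 15 of 26 in the small. It was in 52.1% of their 73 windows, in 29.8% of the 10907 windows of genes in the table and in 16.9% of all 32851 windows. GCATGCGC, the core of NRF1, was in 11% of the windows against 5.13% in the table, and ATGGCG in 24.7% against 14.8%. TATAAA was in 6.85%, against 7.73%. No 2 matches overlapped. These are matches of letters on both strands and show no binding.

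Mrps30 had the smallest p of the 76. Despite its symbol it is a protein of the large subunit, known only in mitochondria, and its gene lies at chr13:118380110-118387252. It measured 539, 587, 487 and 453 in Control mice F129, F2212, F7111 and F2110, and 415, 390, 414 and 451 in Low AA mice H1126, H828, H817 and H1315. The diets did not overlap, but the margin was 2, between F2110 at 453 and H1315 at 451, and it closed when each mouse was centred on its median over all genes. The means were 418 ± 25.1 on Low AA and 516.5 ± 58.8 on Control (SD, n = 4 each). On the log2 scale Low AA minus Control was -0.30 with an SE of 0.11 (limma adjusted p = 0.313), and without F2212 and F7111 it was -0.24.

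Mrpl38, another protein known only from the mitochondrial large subunit, where it is part of the central protuberance, is encoded at chr11:116131817-116138868. In the same order of mice it measured 1053, 1161, 1255 and 904 on Control and 750, 1023, 855 and 910 on Low AA. The diets overlapped, since H828 and H1315 lay above F2110. Its log2 fold change was -0.30 with an SE of 0.13 (limma adjusted p = 0.409), and without F2212 and F7111 it was -0.15. F7111 had the highest value, the opposite of most other genes of the group.

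Mrpl3 (chr9:105053268-105077466) encodes a core protein of the large subunit next to the peptidyl transferase centre, with a counterpart in bacteria. It measured 436, 401, 351 and 433 on Control and 542, 423, 509 and 486 on Low AA. Low AA mice were higher except that H828 lay below F129 and F2110. Its log2 fold change was 0.27 with an SE of 0.12 (limma adjusted p = 0.405), and 0.17 without F2212 and F7111.

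The largest estimate in the higher direction belonged to Mrpl23, a protein at the exit of the nascent chain tunnel. It measured 447, 558, 301 and 356 on Control and 490, 451, 523 and 548 on Low AA, so the Low AA mice lay between the Control extremes F7111 and F2212. The log2 fold change was 0.31 with an SE of 0.18 (limma adjusted p = 0.550). Mrpl12, the stalk protein (chr11:120484637-120488754), measured 3098, 3478, 2374 and 2770 on Control and 3175, 2961, 3426 and 3759 on Low AA. H1315 on Low AA was its highest mouse and F7111 on Control its lowest, and the log2 fold change was 0.19 with an SE of 0.13 (limma adjusted p = 0.633). Mrpl47 gave 0.20, with 277, 287, 212 and 278 on Control and 324, 248, 324 and 315 on Low AA.

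Mrps22, a small subunit protein known only in mitochondria, measured 469, 410, 330 and 330 on Control and 337, 349, 323 and 306 on Low AA. F129 and F2212 lay above every Low AA mouse, while F7111 and F2110 lay among them. The log2 fold change was -0.21 with an SE of 0.13 (limma adjusted p = 0.603). Mrps12, whose bacterial counterpart shapes decoding accuracy, had 525, 576, 366 and 452 on Control and 352, 501, 360 and 444 on Low AA and the same estimate of -0.21. Mrpl39, a large subunit protein related to threonyl-tRNA synthetase, measured 765, 726, 647 and 639 on Control and 603, 649, 546 and 625 on Low AA, and its diet difference was -0.20 on the log2 scale (limma adjusted p = 0.520). Only H828 reached the lower Control mice. Mrps36, since recognised as a part of the alpha-ketoglutarate dehydrogenase complex and not of the ribosome, measured 180, 209, 172 and 180 on Control and 184, 151, 147 and 161 on Low AA (-0.20).

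**Figure D2:**
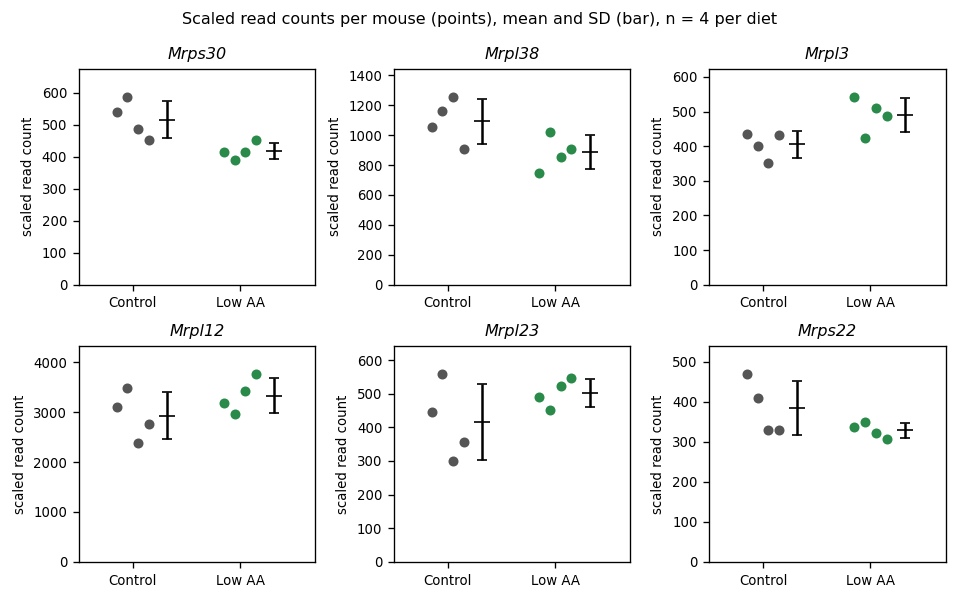
Scaled read counts of 6 mitochondrial ribosomal protein genes in each of the 8 mice (points, Control grey, Low AA green) with the mean and SD (bar, n = 4 per diet), each axis starting at 0. In Mrps30 the lowest Control mouse (453) is just above the highest Low AA mouse (451), and in the other 5 genes the diets overlap.

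The remaining genes named for their role or their extreme values had estimates between -0.18 and 0.20. Mrpl4, which lines the exit tunnel, had a log2 fold change of 0.06, and Mrpl44, which has a ribonuclease III fold, one of -0.06. Mrpl37 and Mrpl41, known only in mitochondria, gave -0.04 and -0.08. In the small subunit Mrps5 gave 0.11, with 883 ± 11.7 on Low AA and 821 ± 85.9 on Control (SD, n = 4 each). Mrps16 gave 0.08, Mrps28 0.09, Mrps33 0.11 and Mrps34 0.01, and Mrps17 gave 0.20, the highest of the small subunit. Mrps27, a pentatricopeptide repeat protein, gave -0.18. The paralogs Mrps18a, Mrps18b and Mrps18c gave 0.02, -0.01 and 0.03. These 3 are related in sequence, and the division of reads among them was not examined. The most and least abundant genes per kilobase gave 0.05 (Mrpl30), -0.04 (Mrps21), -0.01 (Mrpl19), -0.01 (Mrps25) and 0.04 (Mrps26).

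The precision of these estimates is given by their 95% intervals. The SE of the log2 fold change ran from 0.0903 to 0.192 over the 76 genes, with a median of 0.132. For 67 of the 76 the whole interval lay within 0.5 of 0 on the log2 scale, that is within 1.41-fold in either direction, and for all 76 it lay within 1. The 9 whose interval reached further than 0.5 were Mrpl3, Mrpl23, Mrpl36, Mrpl38, Mrpl47, Mrps6, Mrps12, Mrps22 and Mrps30. The lowest bound was -0.60 (Mrpl38) and the highest 0.70 (Mrpl23). The intervals of Mrpl3, Mrpl38 and Mrps30 left out 0, though none of these genes was called after adjustment. Every other interval held 0, so those differences could not be told from 0 with 4 mice per diet. A p that missed the threshold does not show that a gene was equal on both diets.

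**Figure D3:**
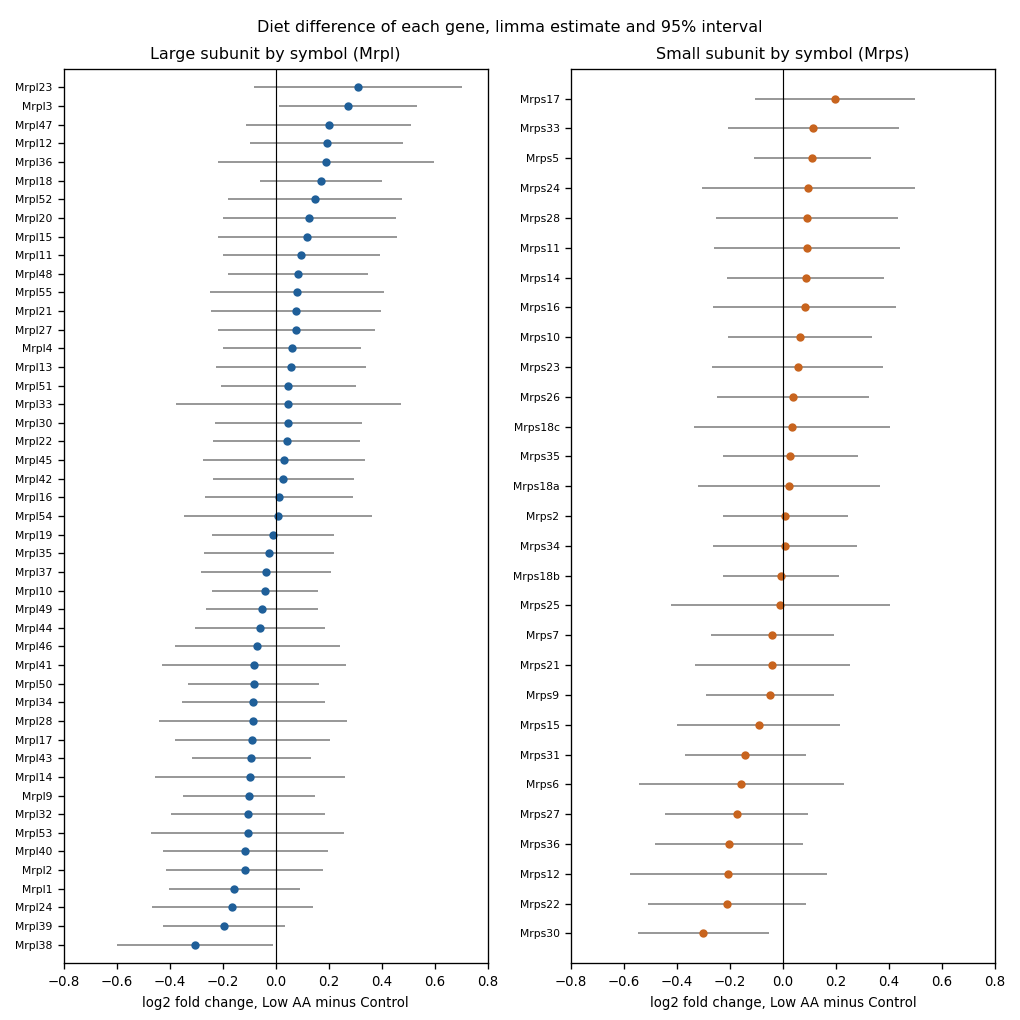
The limma log2 fold change (Low AA minus Control) of each mitochondrial ribosomal protein gene with its 95% interval, large subunit on the left and small subunit on the right, sorted by estimate. Estimates run from -0.30 (Mrpl38) to 0.31 (Mrpl23), and only the intervals of Mrpl3, Mrpl38 and Mrps30 leave out 0.

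The large and small subunits were alike in their medians. Over the 47 large subunit genes the median log2 fold change was 0.01, with 24 above 0 and 23 below, and a range from -0.30 to 0.31. Over the 29 small subunit genes it was also 0.01, with 16 above and 13 below, and a range from -0.30 to 0.20. The median over all genes was 0.00. With Mrps30 and Mrps18a counted in the large subunit, where both proteins sit, the medians were again 0.01 for 49 and 0.01 for 27 genes. Removing the trend of each mouse with transcript length turned the median of the large subunit to -0.02 and left the small one at 0.00, and leaving out F7111 turned them to -0.09 and -0.07, so neither sign was stable.

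Taken within each mouse, the 2 subunits moved together in the deposited values. Each gene was set relative to its mean over the 8 mice, and the median over the large subunit was 0.14, 0.17, -0.26 and -0.08 in F129, F2212, F7111 and F2110 and -0.07, -0.03, 0.01 and 0.12 in H1126, H828, H817 and H1315. The small subunit followed with 0.14, 0.20, -0.22 and -0.03 and then -0.04, -0.11, 0.00 and 0.15. Both subunits were highest in F2212, F129 and H1315 and lowest in F7111. The large minus the small subunit was 0.01, -0.03, -0.05 and -0.05 on Control and -0.03, 0.08, 0.00 and -0.02 on Low AA. It averaged 0.0071 ± 0.0515 on Low AA and -0.0284 ± 0.0255 on Control (SD, n = 4 each). The difference of 0.0355 was below the SD of 0.0406 between mice of the same diet, and no test was made of it. With the trend with transcript length removed, the subunits no longer shared this order of mice. The large subunit was then lowest in F7111, at -0.09, where the small one was -0.01. The small subunit was lowest in H828, at -0.09, where the large one was 0.02.

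A split by origin of the proteins gave small medians of either sign. The 29 large subunit proteins with a bacterial counterpart had a median log2 fold change of 0.05, with 17 above 0 and 12 below. For the 19 classed as found only in mitochondria, Mrps30 and Mrps18a among them, the median was -0.06, with 7 above and 12 below. In the small subunit the 16 conserved genes had a median of 0.05 and the 10 classed as found only in mitochondria -0.00. The class of Mrps18a and Mrps18b is uncertain, since their paralog Mrps18c was classed as conserved. Each median lay within the spread of single mice given above. That spread is largely shared by the classes, so it does not measure the difference between them. The difference was not taken within each mouse, and the classes were not tested against each other. Mrpl55 and Mrps36 were left out of the split.

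In the deposited values the spread between mice was wider on Control than on Low AA. The median SD of the log2 values was 0.132 on Low AA and 0.212 on Control, where all genes had 0.172 and 0.230. The SD was larger on Control for 63 of the 76 genes (82.9%), against 67.5% of all genes. In the 2 comparison groups below it was also larger on Control for most genes. These were 75 of 78 cytosolic ribosomal protein genes (96.2%) and 61 of 75 genes of the respiratory chain and ATP synthase (81.3%). For 38 of the 76 both the lowest and the highest of the 8 values were in Control mice. With the trend with length removed, the large subunit median ran from -0.09 to 0.06 on Control and from -0.05 to 0.02 on Low AA. The small subunit median then ran from -0.01 to 0.08 on Control and from -0.09 to 0.04 on Low AA, so it was not wider on Control.

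The same mice carried the extremes of most genes. F7111 had the lowest value, alone or tied, for 50 of the 76 (65.8%), 32 of 47 in the large and 18 of 29 in the small subunit, where it was lowest for 20% of all genes. F2212 had the highest for 38 of 76, against 20.9% of all genes, and F129 for 19. In 35 genes F7111 was lowest while F2212 or F129 was highest, and in 0 genes was F2212 or F129 the lowest. On Low AA the highest mouse was most often H1315, the top of all 8 for 14 genes. The heat map of the 76 genes by mouse shows F7111 as a blue column and F2212 and F129 as red ones, with Mrpl38 and Mrps30 among the few genes that run against F7111.

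**Figure D4:**
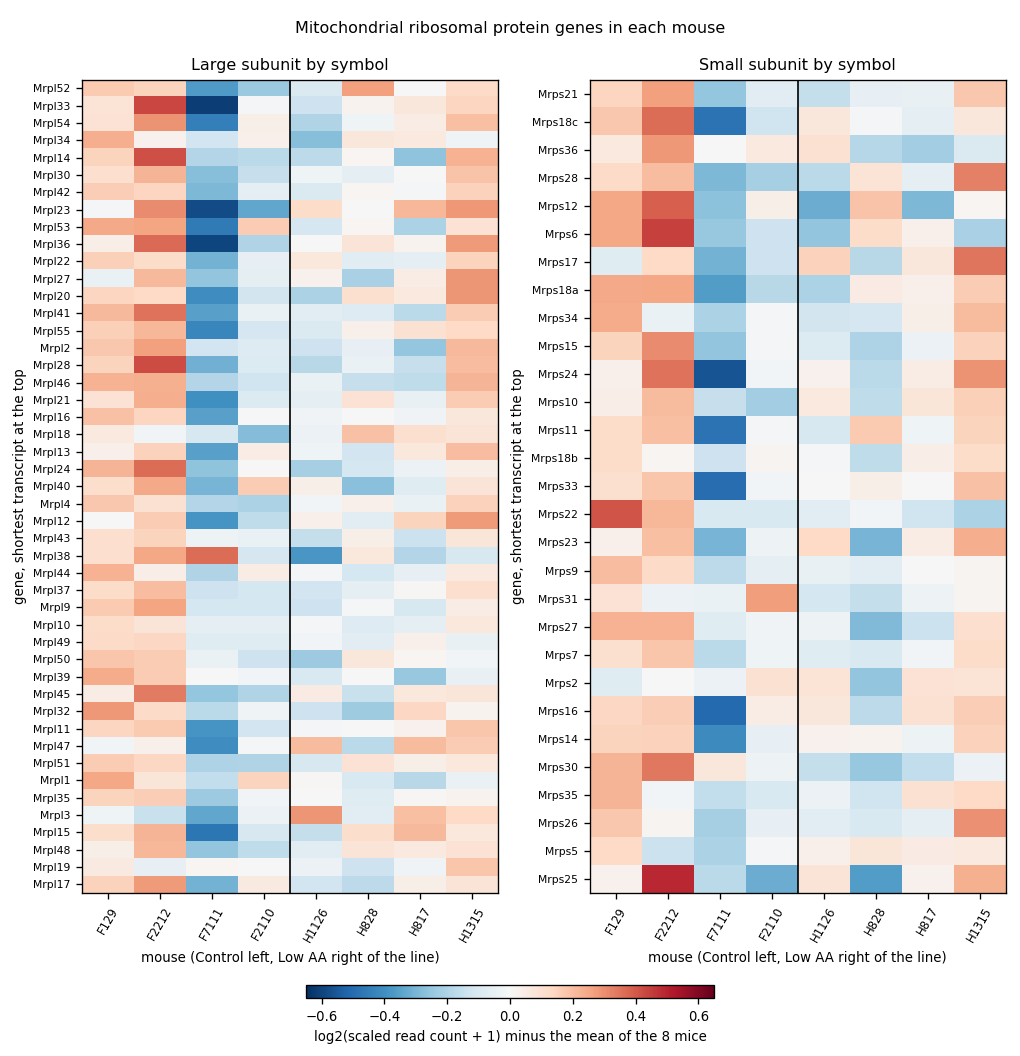
Log2(scaled read count + 1) of each mitochondrial ribosomal protein gene minus its mean over the 8 mice (colour), genes in rows from the shortest transcript at the top, mice in columns with Control left and Low AA right of the line. F7111 is lowest for 50 of the 76 genes and F2212 highest for 38.

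This order of mice moved with transcript length across the whole table. Lengths were found for 10472 of the 11784 genes and for all 76 of the group, whose median of 1226.5 bases lay below the 2926 of all genes, with 50 of the 76 in the shortest of 5 equal bins of all genes. In that bin (345 to 1705 bases) the median relative log2 value was 0.20 in F2212 and -0.20 in F7111. In the longest bin it was -0.26 in F2212 and 0.19 in F7111. Short mRNAs in general were thus high in F2212 and low in F7111, and long ones the reverse.

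Within the 76 genes F7111 stayed low at every length. Its median was -0.31, -0.19 and -0.19 in 3 bins from short to long, and that of F2212 was 0.26, 0.20 and 0.15. When the trend with length was removed in each mouse over all genes, the median over the 76 was -0.08 in F7111 and 0.03 in F2212, and the range over the 8 mice went from 0.448 to 0.140. F7111 was then lowest for 27 genes and F2212 highest for 16. The part of RNA quality or library preparation in the trend was not tested.

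**Figure D5:**
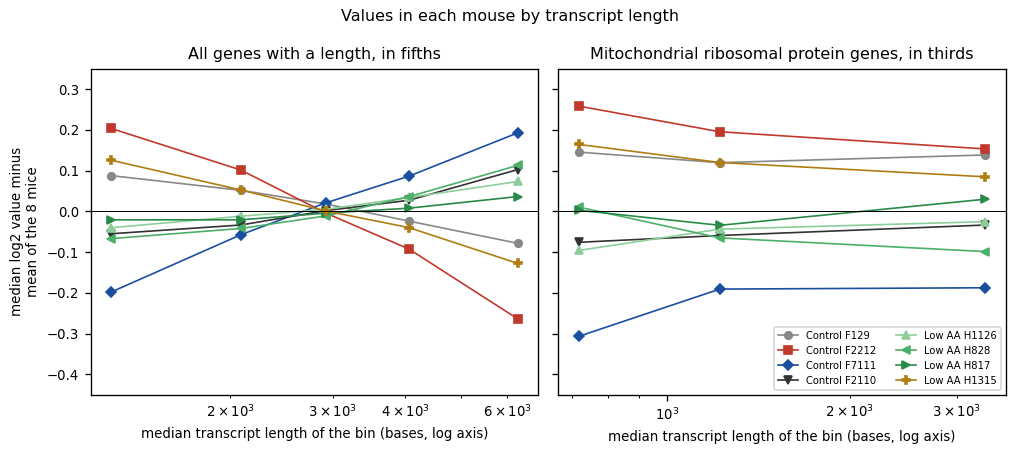
Median log2 value relative to the mean of the 8 mice against transcript length (bases, log axis), for all genes with a length in 5 bins on the left and for the mitochondrial ribosomal protein genes in 3 bins on the right, 1 line per mouse. F2212 falls from 0.20 to -0.26 and F7111 climbs from -0.20 to 0.19 across all genes, while the 76 genes keep F7111 between -0.31 and -0.19.

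With the length trend removed, 0 of the 76 genes were called (smallest limma adjusted p = 0.202, Mrpl23), against 0.936% of all genes with a length. At an unadjusted p under 0.05 there were then 4, Mrps30 lower and Mrpl3, Mrpl12 and Mrpl23 higher on Low AA, where all genes gave 8.06% lower and 7.13% higher. The diets did not overlap for Mrpl12 and Mrpl23, both higher, and Mrps21, lower, against 4.89% and 4.52% of all genes, and they did overlap for Mrps30. Mrps30 kept its log2 fold change, -0.29 against -0.30.

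Proteins of the same particle that carry other symbols gave 7 more genes, of which 0 had a limma p under 0.05 before adjustment. Their log2 fold changes were -0.07 for Dap3, -0.13 for Ptcd3, 0.04 for Chchd1, -0.06 for Aurkaip1, -0.22 for Gadd45gip1, -0.12 for Mrp63 and 0.08 for Ict1. F7111 was the lowest mouse for 5 of these 7, among them Chchd1, at 341 against 418 to 646 in the others. For Dap3 and Ptcd3 the lowest mouse was H828 on Low AA.

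The genes that work around the particle were likewise without a call by limma, 0 in each list that follows, against 0.399% of all genes. Of 15 translation factors and related proteins 10 were below 0, with a median log2 fold change of -0.15 and 0 at an unadjusted p under 0.05. Tufm, the elongation factor that brings aminoacyl-tRNA, measured 2633, 2627, 2338 and 2400 on Control and 1994, 2202, 2115 and 2435 on Low AA (-0.19, SE 0.10, limma adjusted p = 0.473). H1315 alone reached the Control range. Lrpprc, which stabilises mitochondrial mRNAs, gave 0.17, and 2810006K23Rik, grouped with the termination factors, gave -0.30. Gfm1, the translocation factor, named after its values were seen, was the 1 gene of the list without overlap, 2421 to 2816 on Control and 2862 to 2932 on Low AA (0.14). Of all genes, 3.26% lay wholly above on Low AA.

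Of 17 mitochondrial tRNA synthetases 13 were below 0, with a median of -0.14, and 2, with Vars2 among them, were lower at an unadjusted p under 0.05. Over all genes 6.7% were lower at that threshold. Vars2, the valyl-tRNA synthetase, measured 488, 491, 541 and 465 on Control and 344, 435, 362 and 376 on Low AA, without overlap (log2 fold change -0.39, SE 0.11, limma adjusted p = 0.174). Wars2, for tryptophan, ran the other way at 0.33. The highest estimate of the list was that of Lars2, for leucine, named after its values were seen, at 0.71 with an SE of 0.51 (limma adjusted p = 0.663). It measured 23215 in H1126 and 2785 to 7049 in the other 7 mice. Ears2, for glutamate, named after its values were seen, was the other gene without overlap, 260 to 292 on Control and 237 to 255 on Low AA. Over all genes 3.55% lay wholly below on Low AA.

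Of 26 assembly factors 1 was lower at an unadjusted p under 0.05, against 6.7% of all genes, and the median was -0.04. That gene was Gtpbp6, a GTPase of the mitochondrial ribosome, with 164, 182, 117 and 167 on Control and 112, 138, 118 and 107 on Low AA (-0.39, limma adjusted p = 0.385). Mpv17l2 gave 0.31 and Nsun4, an RNA methyltransferase, -0.26. The 10 genes that transcribe and copy mitochondrial DNA had a median of -0.02, with Tfam, which packages that DNA, at 0.16, Polg, its polymerase, at -0.10 and Mterfd3 at -0.37.

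Among 9 regulators of mitochondrial biogenesis 8 were above 0, with a median of 0.07. Against 5.13% of all genes, 1 of the 9 was higher at an unadjusted p under 0.05. This was Esrra, a nuclear receptor that drives oxidative genes, with 695, 740, 625 and 813 on Control and 833, 823, 957 and 1012 on Low AA, without overlap (0.34, SE 0.12, limma adjusted p = 0.276). Ppargc1a, its coactivator and a gene of fasting, varied most within a diet, with 477, 465, 1828 and 1686 on Control and 1191, 1612, 794 and 1831 on Low AA (0.51, SE 0.47). F129 and F2212, the mice with the highest mitochondrial ribosomal protein values on Control, had the 2 lowest values of Ppargc1a. H1315, the highest for the mitochondrial ribosomal proteins on Low AA, had the highest Ppargc1a of all 8 mice. The Ppargc1a transcript, at 6464 bases, falls in the longest bin, whose median over genes was -0.26 in F2212 and -0.08 in F129. No link between them was tested. Gabpa, a subunit of the ETS factor GABP, gave 0.12. None of the 13 mRNAs that the particle translates was among the genes listed.

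The cytosolic ribosome, which makes the imported proteins, gave other values. The 78 cytosolic ribosomal protein genes, chosen for comparison after values had been seen, had a median log2 fold change of 0.33. All 78 lay above 0, and 45 were higher at an unadjusted limma p under 0.05, against 5.13% of all genes. Of the 78, 0 were called, against 0.399%. With the length trend removed, 12 of the 77 with a length were called, all higher on Low AA, against 0.936% of all genes. An unadjusted p under 0.05 was then found for 63, all higher, against 7.13%. F7111 was lowest for 77 of these 78, as it was for 50 of the 76 mitochondrial ones. The 75 nuclear genes for subunits of the respiratory chain and ATP synthase had a median of 0.08, with 58 above 0, 0 at an unadjusted p under 0.05, and F7111 lowest for 64. With the length trend removed 0 of these 75 were called by limma, and 9 had an unadjusted p under 0.05, 7 higher and 2 lower. All genes then gave 7.13% higher and 8.06% lower. The 3 groups share the same 8 mice, and the differences between them were not tested.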

How the data were processed

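Poly(A) liver RNA of 8 mice, 4 per diet, was sequenced by the study. Per the labels, the submitters' processing notes name bcl2fastq 1.8.2, STAR 2.5.0a, RSEM 1.2.6, edgeR 3.10.5, R 3.2.1 and the mm10 build. The authors deposited 1 whole number per gene and mouse, a scaled and rounded read count, treated here as a score because the factor is not given in the sources used here. Their own fold change and FDR columns were not used, and the annotation and the filter on low genes are likewise not given. limma 3.58.1 (R 4.3.3) was fitted to log2(value + 1) of all 11784 genes, moderated along the mean expression, with Benjamini-Hochberg adjusted p under 0.05 as the threshold, and was tested on simulated data. Whole reads could not be recovered, so no count model was run.

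The 76 genes and all lists were chosen with earlier results of these data known, and the 2 comparison groups after values had been seen. Named genes were, per subunit by symbol, the 4 with the smallest p, the 2 highest and 2 lowest fold changes and levels per kilobase, 18 chosen by role, the 3 smallest p per related list and every subunit with another symbol. The values of 1 gene that this rule names are not reported here. Lengths were the median over GENCODE M21 principal coding transcripts, and gene positions and promoter windows came from RefSeq on GRCm38.p6, the mm10 assembly. Symbols were matched to RefSeq directly or through synonyms. The length trend was a lowess curve (span 0.3) on log2 length in each mouse. Alternatives were a pseudocount of 0.1 or 5, only the 8000 most expressed genes, equal totals, median centring, no mean-variance trend, an adjusted p under 0.1, other groupings of Mrps30 and Mrps18a, means in place of medians, and each mouse left out. Removal of the length trend and leaving out F2212 and F7111 were chosen after seeing the data. Figures were drawn with matplotlib 3.10.9.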

Additional observations from a re-analysis of the deposited data

Results flagged for a closer look

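In each diet group of 4 mice, the gap of the highest or lowest mouse to its nearest neighbour was divided by the range of the group, and a ratio above Dixon's critical value at 95% marked a mouse far from the other 3. The 108 groups examined were the 2 diets of each of 51 named genes, of the medians of the 2 subunits and of the large minus the small subunit. Of these 4 were marked, and about 1 in 20 groups is marked by chance. Mrpl47 was marked on both diets, with H828 at 248 below 315 to 324 on Low AA (ratio 0.882) and F7111 at 212 below 277 to 287 on Control (ratio 0.867). Mrps26 had H1315 at 490 above 372 to 383 on Low AA (ratio 0.907). Dap3 had F2212 at 836 above 760 to 772 on Control (ratio 0.842).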

How the results depend on the processing

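No gene of the group was called by limma under any alternative. The count at an unadjusted p under 0.05 was between 2 and 4 under the other settings and between 1 and 4 when each mouse was left out in turn, at 1 without F129, H1126, H817 or H1315 and at 4 without F7111. The count of genes without overlap between diets was 0 after centring each mouse on its median, 3 after removal of the length trend and 6 without F2212 and F7111, and it ran from 1 to 4 when 1 mouse was left out, at 4 without H828 or without F7111. Over all genes with 1 mouse left out, 7.84% to 13.3% had an unadjusted p under 0.05 and 7.98% to 12.7% did not overlap, against 1.32% to 5.26% of the 76 on either measure. The cause was not tested, beyond that fewer mice overlap less easily. With single mice left out, the median log2 fold change of the large subunit ran from -0.09 (without F7111) to 0.06 (without F2212) and that of the small subunit from -0.07 (without F7111) to 0.08 (without F129), so both changed sign. The SD between mice of the same diet was 0.155 and 0.151. Leaving out 1 of 4 mice moves a mean by only part of such a spread, so the SD is no yardstick for these shifts. Of 51 named genes, 20 changed sign under some alternative, all with a log2 fold change of at most 0.12 in size. The edgeR and DESeq2 alternatives were not run because whole reads could not be recovered from the scaled values. No paired analysis was possible because no mouse code occurs on both diets. The values are scaled, so how much of the spread is counting error could not be computed.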
